A study of Arabidopsis thaliana with 27 samples.

Results

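The 6 dcl1-7 arrays of this Arabidopsis thaliana series, out of 27 in all, were used to compare inflorescences (3 arrays) with rosette leaves (3 arrays) of 1 genotype. Every probe set of the ATH1 array was compared except the manufacturer's controls, which left 22746 of 22810 probe sets. The dcl1-7 mutant carries a weak loss-of-function allele of DICER-LIKE1, and its inflorescences and leaves were both mutant, so the organ difference within the mutant is a comparison of organs and not of genotypes. The inflorescence material was flowers of stages 1 to 12 and the leaf material was rosette leaves 5 to 8, with at least 9 independent plants pooled in each biological replicate, per the labels. Beside it stand the same organ differences in Col-0, the wild type, for which 3 leaf arrays and 2 sets of 3 inflorescence arrays exist. Set B is labelled as the control of dcl1-7 inflorescences, while set A served the inflorescences of dcl4-2 and rdr6-15. Those siRNA pathway mutants, 12 arrays from both organs, entered the fit only through the estimate of the spread between arrays. The comparison asks how organ-typical expression looks where microRNA production is impaired.

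DICER-LIKE1 cuts the hairpin precursors of nearly all plant microRNAs, and plants with weak alleles still make some of them. Mature microRNAs guide ARGONAUTE proteins to matching messenger RNAs, which are cut or translated less, and many of the targets are transcription factors that shape leaves and flowers. Mutants of the gene are known for abnormal ovules, flowers and leaves. DICER-LIKE1 itself was not analysed here, since no probe set carries its symbol alone, so the genotype labels were not checked against it.

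The first principal component held 74.2% of the variance between arrays and separated inflorescences from leaves. The second held 13.5% and separated the Col-0 inflorescence sets: dcl1-7 inflorescences scored 28.13 to 41.58 on it, against 74.56 to 78.91 for set B and -29.71 to -27.13 for set A. The mutant thus lay between its 2 possible references, and each comparison below is given with both. The difference between 3′ and 5′ probe sets of the control transcripts, a measure of RNA integrity that is higher in degraded RNA, was 1.94, 2.02 and 3.01 in dcl1-7 inflorescences, against 3.18, 3.56 and 2.99 in dcl1-7 leaves (log2). It ran from 2.63 to 3.56 on the 12 leaf arrays of the series and from 1.81 to 3.12 on the 15 inflorescence arrays. On 3 inflorescence arrays it lay above the lowest leaf array, and otherwise it moves with organ. With it as a covariate 9 of the 232 gene results changed their side of the threshold, and those described below are given with that value too. The third dcl1-7 inflorescence array and the third set B array (2.99) stand apart from the others of their groups in it. Also, the first dcl1-7 leaf array correlated with Col-0 leaf arrays 2 and 3 (r = 0.9830 and 0.9826 over probe sets) slightly more than with the other dcl1-7 leaf arrays (r = 0.9820 and 0.9799). Results whose call or size turned on these arrays, or on any other single array left out, are given with that value.

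In dcl1-7, 14813 probe sets differed between inflorescence and leaf (65.1% of all tested; limma, Benjamini-Hochberg adjusted p under 0.05). Of these, 7115 were higher in inflorescences (31.3%) and 7698 were lower (33.8%). At least 2-fold differences were found in 5108 (22.5%), of which 2857 were higher (12.6%) and 2251 lower (9.90%) in inflorescences. The ranges of the 3 inflorescence and the 3 leaf arrays did not overlap for 14561 probe sets (64.0%). The median difference was -0.07 on the log2 scale of the deposited values, on which all levels and differences here are given. With each array centred on its own median the median difference was -0.20, and 5992 probe sets were higher and 10695 lower. Transcripts of all cells of an organ are mixed in such RNA, so fewer cells of a type and less RNA per cell cannot be told apart.

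Among the 10 named genes with the largest rise in dcl1-7 inflorescences over leaves were AT1G66850 and AT5G62080, members of the lipid transfer protein family, and ATA27, a tapetum β-glucosidase. AT1G66850 had 12.93, 13.34 and 13.21 in dcl1-7 inflorescences, against 4.94, 6.19 and 6.06 in dcl1-7 leaves. ATA27 had 11.12, 11.62 and 11.52 in dcl1-7 inflorescences, against 5.31, 5.31 and 5.42 in dcl1-7 leaves. Their organ differences were 7.43 ± 0.24 (SE; adjusted p = 3.59e-17) and 6.07 ± 0.18 (SE; adjusted p = 6.4e-18). The Col-0 differences with sets B and A were 7.77 and 8.10 for AT1G66850, and 4.49 and 7.27 for ATA27. AT5G22430, of the pollen Ole e 1 family, differed by 6.99 ± 0.16 (SE; adjusted p = 1.49e-19), and AT5G62080 by 6.55 ± 0.17 (SE; adjusted p = 1.07e-18). AT3G07820, an exopolygalacturonase of pollen, differed by 5.77 ± 0.20 (SE; adjusted p = 1.49e-16). THI2.1, an antimicrobial thionin, had 11.78, 11.93 and 12.01 in dcl1-7 inflorescences, against 5.17, 6.75 and 5.99 in dcl1-7 leaves. The largest named difference was that of AT1G68875, at 7.50 ± 0.13 (SE; adjusted p = 1.96e-21), with 7.90 and 7.54 in Col-0 with sets B and A. AT4G23680 (6.53), AT2G33850 (6.32) and AT2G20870 (6.25) complete the 10 largest. Groups of dcl1-7 arrays that do not overlap were a condition of the choice of these 10. Both Col-0 differences passed the test in the same direction for all 10.

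Among the 10 named genes with the largest fall, AT5G52760 and AT5G52750, heavy-metal-associated domain proteins, differed by -7.42 ± 0.21 (SE; adjusted p = 4.54e-18) and -6.03 ± 0.21 (SE; adjusted p = 1.5e-16). AT3G01830, an EF-hand calcium-binding protein, had 4.50, 4.90 and 4.57 in dcl1-7 inflorescences, against 11.76, 11.63 and 11.97 in dcl1-7 leaves. It differed by -7.13 ± 0.18 (SE; adjusted p = 5.09e-19). AT5G18470 and AT3G16530, lectin-domain proteins, differed by -6.90 ± 0.17 (SE; adjusted p = 5.41e-19) and -6.43 ± 0.13 (SE; adjusted p = 3.2e-20). WRKY53, a transcription factor of senescence and defence, had 5.68, 6.17 and 5.89 in dcl1-7 inflorescences, against 12.03, 12.09 and 11.25 in dcl1-7 leaves. PDF1.2, a defensin induced by jasmonate, had 6.61, 6.91 and 6.58 in dcl1-7 inflorescences, against 11.34, 12.54 and 13.14 in dcl1-7 leaves. Its leaf arrays spread widely, yet every one lay above every inflorescence array. The others were AT1G19020 (-7.04), AT1G13470 (-6.41) and AT2G25735 (-5.71). Col-0 differed in the same direction for all 10 with both sets, and the sizes ranged from -3.91 to -6.13 with set B and from -4.92 to -7.59 with set A.

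**Figure D1:**
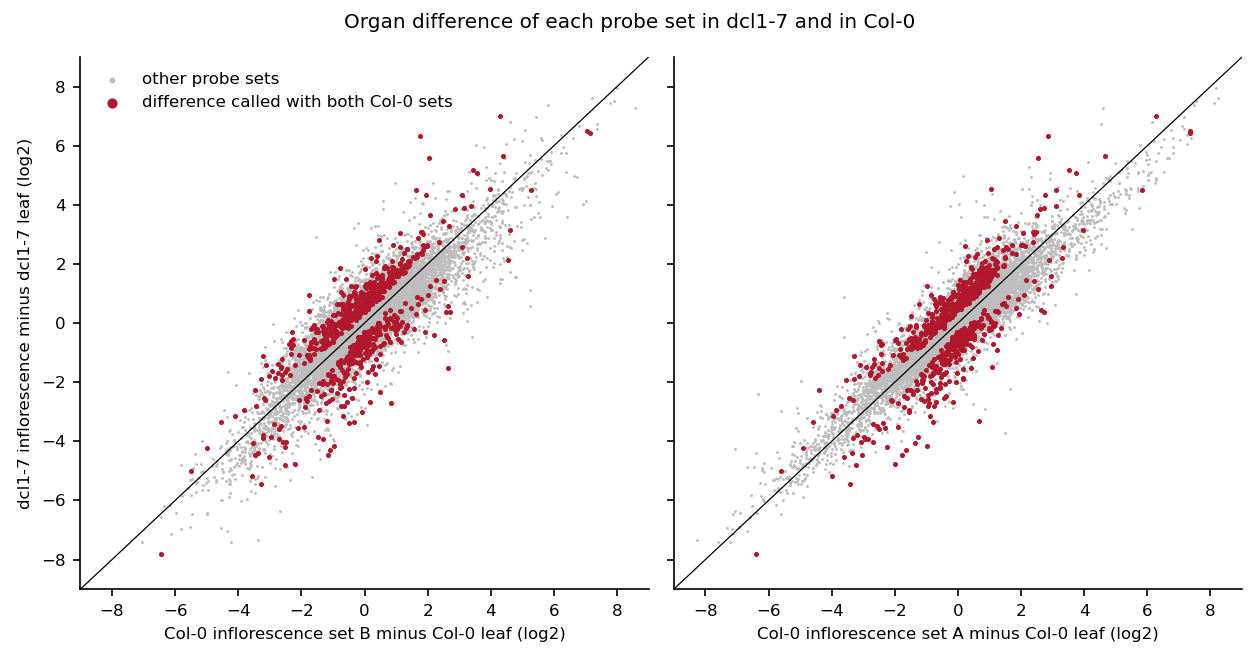
Organ difference (inflorescence minus leaf, log2) of each of the 22746 probe sets in dcl1-7 (y axis) against that in Col-0 with inflorescence set B (left) and set A (right); the line marks equal differences. Red points are the 734 probe sets whose difference between dcl1-7 and Col-0 was called with both sets in the same direction; most points follow the line in both panels.

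Most organ-typical expression of Col-0 was kept in dcl1-7. In Col-0, 13402 probe sets (58.9%) differed between organs with set B, 6426 higher (28.3%) and 6976 lower (30.7%) in inflorescences. With set A they were 13643 (60.0%), 7156 higher (31.5%) and 6487 lower (28.5%). The 2 Col-0 counts share the 3 leaf arrays. Across the 22746 probe sets the dcl1-7 difference correlated with that of Col-0 at r = 0.874 with set B and 0.907 with set A, a description over features that share their arrays. The spread of the differences over probe sets was alike, with an SD of 1.14 in dcl1-7, 1.13 with set B and 1.17 with set A. In Col-0, 1488 probe sets were at least 2-fold higher in inflorescences with both sets (6.54%), and 1756 were at least 2-fold lower (7.72%). Of the 1488, 1351 (90.8%) were at least 2-fold higher in dcl1-7 inflorescences too, against 12.6% of all probe sets. A further 117 rose by less, 20 were not called and 0 were called the other way (0 at an unadjusted p under 0.05). Of the 1756 leaf-typical ones, 1581 (90.0%) were at least 2-fold lower in dcl1-7 inflorescences, against 9.90% of all. The others were 162 that fell by less, 13 not called and 0 called the other way (0 at an unadjusted p under 0.05). Without the first dcl1-7 leaf array the shares were 88.9% of 1486 and 86.7% of 1757. Without the third dcl1-7 inflorescence array they were 89.8% of 1494 and 90.8% of 1756, with 1 probe set of the 1494 called the other way.

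Taken from the other side, 1351 (47.3%) of the 2857 probe sets at least 2-fold higher in dcl1-7 inflorescences were at least 2-fold higher in Col-0 with both sets. A larger share, 2341 (81.9%), were called in that direction with both. For the 2251 at least 2-fold lower in dcl1-7 inflorescences, the counts were 1581 (70.2%) and 2004 (89.0%). The probe sets past 2-fold in dcl1-7 and called with neither Col-0 set were 30 higher and 48 lower.

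Counts over gene lists are read against all probe sets, of which 31.3% were called higher and 33.8% lower in dcl1-7 inflorescences. For a difference from Col-0 called with both sets, the shares were 1.91% more positive and 1.32% more negative. Listed genes counted as measured if they matched a probe set with a single symbol, and whether the array measures the others was not examined. Lists were chosen with earlier results of these data known, so the counts are a description and not a test. Among 33 regulators of flowers and meristems, 14 rose and 7 fell in dcl1-7 inflorescences relative to leaves, with a median of 0.17, beside a median of -0.07 over all probe sets. Without the third dcl1-7 inflorescence array 15 rose and 4 fell. Col-0 had 15 rises and 4 falls with set B and 17 and 2 with set A. Past 2-fold were 8 rises and 0 falls. ALC, a bHLH factor of fruit opening, had 10.21, 10.56 and 10.76 in dcl1-7 inflorescences, against 5.99, 5.69 and 6.08 in dcl1-7 leaves. It differed by 4.59 ± 0.16 (SE; adjusted p = 1.27e-16). AGL42, a MADS-box factor, had 8.26, 8.14 and 8.21 in dcl1-7 inflorescences, against 4.65, 4.96 and 4.82 in dcl1-7 leaves, with non-overlapping organs. BPEp, which limits petal size, and ULT1, which ends the floral meristem, differed by 2.21 ± 0.17 (SE; adjusted p = 2.41e-10) and 1.99 ± 0.18 (SE; adjusted p = 3.55e-09). SPT, a bHLH factor of carpels, had 8.06, 8.21 and 7.96 in dcl1-7 inflorescences, against 5.74, 6.45 and 6.21 in dcl1-7 leaves. NGA1 (1.18), TSO1 (1.48) and HLL (1.00) also rose. The 7 falls were small, and among them were UFO (-0.22), CLV3 (-0.34) and ROXY2 (-0.34), all chosen after their values were seen. INO, a YABBY factor that forms the outer integument of the ovule, was the 1 member whose organ difference differed from Col-0 with both sets. It had 6.36, 6.55 and 6.23 in dcl1-7 inflorescences, against 6.57, 6.89 and 6.79 in dcl1-7 leaves. The Col-0 arrays had 7.76, 7.32 and 7.26 in set B and 6.61, 6.97 and 6.56 in set A inflorescences, against 6.31, 6.47 and 6.53 in Col-0 leaves. The dcl1-7 inflorescences were thus below the leaves and below set B. The differences of organ differences were -1.38 ± 0.21 with set B (adjusted p = 4.59e-05) and -0.65 ± 0.21 with set A (adjusted p = 0.0357). With arrays centred on their medians the set A value for INO did not pass (adjusted p = 0.0615). It was also lost without the first or the third dcl1-7 inflorescence array, the second or the third dcl1-7 leaf array, the second set A array or the first or the second Col-0 leaf array (adjusted p = 0.0552 to 0.114).

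Of 15 anther and tapetum genes measured, out of 34 listed, 12 rose and 1 fell in dcl1-7, beside 31.3% and 33.8% of all probe sets. Of the rises 11 were past 2-fold, and the median was 2.53. Without the third dcl1-7 inflorescence array 12 rose and 0 fell. The Col-0 counts were 11 rises and 0 falls with a median of 2.96 for set B, and 12 and 0 with 3.75 for set A. Their mean level was 8.42 to 8.74 on the dcl1-7 inflorescence arrays, against 5.64 to 5.87 on the leaf arrays. AMS, a bHLH regulator of the tapetum, differed by 2.67 ± 0.24 (SE; adjusted p = 2.9e-09), and EMS1, the receptor kinase that specifies it, by 1.92 ± 0.17 (SE; adjusted p = 1.22e-09). SWEET8, a sugar exporter of the tapetum, had 9.80, 10.21 and 9.65 in dcl1-7 inflorescences, against 6.29, 7.30 and 6.63 in dcl1-7 leaves. Against Col-0, where it had 10.66, 10.92 and 10.88 in set B and 10.01, 10.23 and 10.26 in set A inflorescences, against 6.44, 6.37 and 5.85 in Col-0 leaves, its organ difference was smaller with both sets, at -1.45 ± 0.27 with set B (adjusted p = 0.000389) and -0.80 ± 0.27 with set A (adjusted p = 0.0446), though the set A p was 0.0516 with arrays centred on their medians. The set A call for SWEET8 was lost without the first or the third dcl1-7 inflorescence array, the second or the third dcl1-7 leaf array, the second or the third set A array or the third Col-0 leaf array (adjusted p = 0.0525 to 0.145). ROXY2 was the member that fell (-0.34). Among 21 late pollen genes 13 rose and 1 fell, with a median of 0.38. The counts were 13 and 2 without the first dcl1-7 leaf array and 12 and 0 without the third inflorescence array. PLIM2a and PLIM2b, actin-binding LIM proteins of pollen, differed by 3.15 ± 0.20 (SE; adjusted p = 5.73e-12) and 2.04 ± 0.15 (SE; adjusted p = 7.81e-11). AT59, a pectate lyase of pollen, had 7.41, 7.82 and 8.57 in dcl1-7 inflorescences, against 5.22, 5.36 and 5.63 in dcl1-7 leaves. On these 3 genes the third inflorescence array was the highest.

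Of 14 ovule and egg genes, 6 rose and 3 fell in dcl1-7, with a median of 0.02. The counts were 6 and 5 without the first dcl1-7 leaf array and 5 and 1 without the third inflorescence array. DD46, a gene of the female gametophyte, differed by 1.37 ± 0.18 (SE, adjusted p = 7e-07). VDD, a factor of female gametophyte development, differed by 0.59 ± 0.14 (SE, adjusted p = 0.000695). The egg cell genes EC1.2 (-0.12) and EC1.5 (-0.17) did not pass the test. Among 7 meiosis genes 1 rose (ATMND1, 0.36) and 3 fell (SDS, -0.17; RCK, -0.33; DFO, -0.26). The mean level of the 7 was low, at 5.069 to 5.182 on the dcl1-7 inflorescence arrays and 5.085 to 5.333 on the dcl1-7 leaf arrays. That is close to the floor of the array, so these directions may largely be background. The 3 falls were all under 2-fold, and with quantile normalization none of them passed the test, with differences of -0.01, -0.17 and -0.10. Without the third dcl1-7 inflorescence array SDS (-0.12, adjusted p = 0.199) and DFO (-0.20, adjusted p = 0.173) did not pass either, while 5 of the 7 fell without the first leaf array. The RCK call was lost without the second dcl1-7 leaf array (adjusted p = 0.0816). SDS and DFO were also lost without the second or the third leaf array, and DFO without the first inflorescence array.

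Of 24 cell division genes measured, 16 rose and 0 fell in dcl1-7 inflorescences, beside 31.3% and 33.8% of all probe sets. The median was 0.52, and 6 passed 2-fold. Their mean level was 7.10, 6.93 and 7.04 on the dcl1-7 inflorescence arrays, against 6.28, 6.52 and 6.36 on the dcl1-7 leaf arrays. The 2 Col-0 sets differed widely for these genes: the median was -0.01 with 5 rises and 7 falls for set B, and 1.27 with 22 rises and 0 falls for set A. Accordingly the dcl1-7 difference was larger for 13 genes with set B and smaller for 17 with set A, and for 0 in the same direction with both. 3xHMG-box2, a chromatin protein of mitosis, had 9.07, 8.68 and 9.02 in dcl1-7 inflorescences, against 6.15, 7.04 and 6.98 in dcl1-7 leaves. Its Col-0 values were 7.09, 7.09 and 7.67 in set B and 10.71, 10.50 and 10.54 in set A inflorescences, against 7.48, 6.95 and 7.58 in Col-0 leaves. Its dcl1-7 inflorescence level lay between the sets. So did that of TOPII, the DNA topoisomerase II, whose dcl1-7 organ difference was 1.43 ± 0.19 (SE; adjusted p = 8.27e-07). The Aurora kinases AUR1 and AUR3, which act at the spindle and centromere, differed by 1.41 ± 0.11 (SE; adjusted p = 1.37e-10) and 1.29 ± 0.16 (SE; adjusted p = 5.15e-07). PSF2, a subunit of the replication complex GINS, differed by 1.28 ± 0.12 (SE; adjusted p = 2.19e-09).

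Autophagy genes showed the reverse order of the Col-0 sets. Of 10 measured, 7 rose and 0 fell in dcl1-7, with a median of 0.59, beside 10 rises and a median of 1.79 in Col-0 with set B and 3 rises, 2 falls and a median of 0.12 with set A. ATG8B, which coats the forming autophagosome, had 9.85, 10.03 and 10.15 in dcl1-7 inflorescences, against 7.20, 7.14 and 7.58 in dcl1-7 leaves. The Col-0 arrays had 10.81, 10.78 and 10.63 in set B and 8.73, 8.87 and 8.79 in set A inflorescences, against 6.03, 6.44 and 6.67 in Col-0 leaves. APG8A, of the same family, differed by 1.38 ± 0.17 (SE; adjusted p = 3.71e-07), with 2.095 and 0.39 in Col-0 with sets B and A. Of the 10 differences of organ differences, 8 were negative and called with set B, 2 positive and called with set A, and 0 called in the same direction with both. For both groups of genes, whether dcl1-7 showed more or less of the organ difference thus turned on the Col-0 set.

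**Figure D2:**
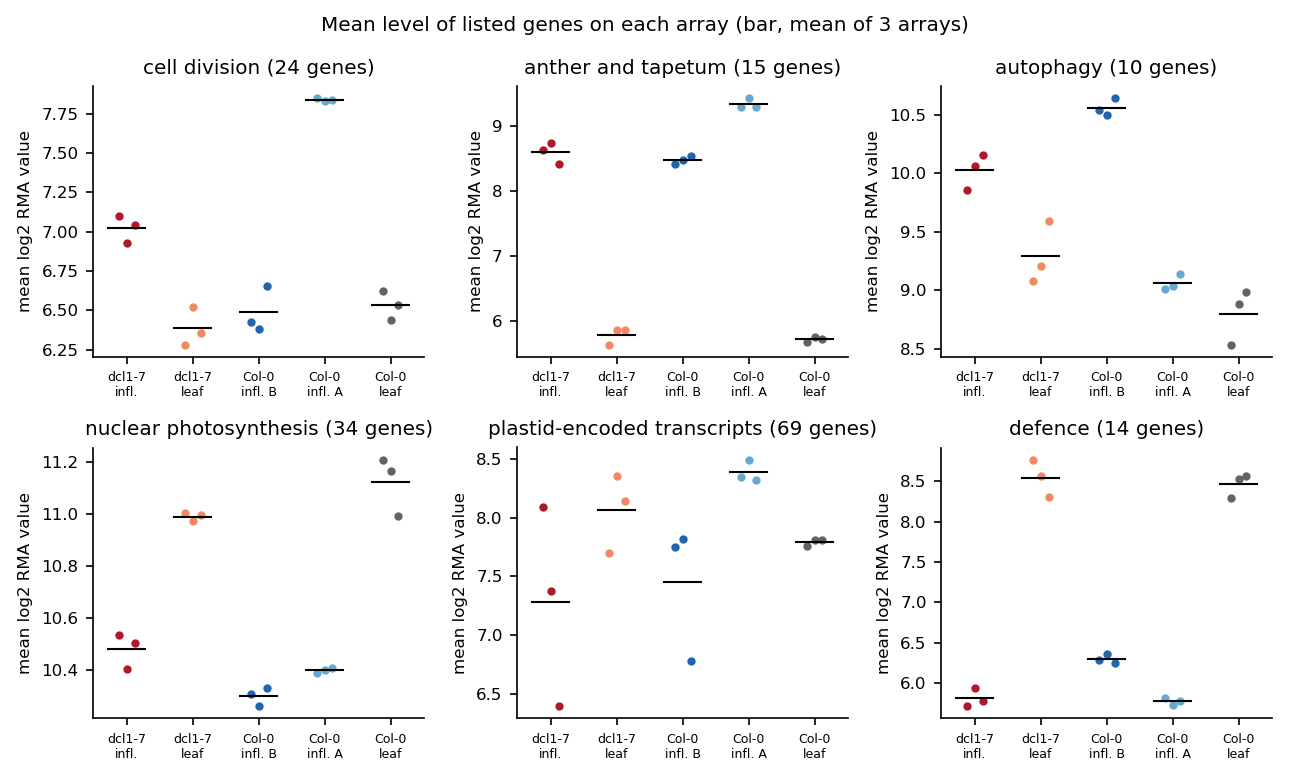
Mean log2 value of 6 gene lists on each of the 3 arrays per group (points; bar, mean of the 3 arrays) for dcl1-7 inflorescences and leaves and for Col-0 inflorescence sets B and A and leaves. Cell division genes in dcl1-7 inflorescences (6.93 to 7.10) lie between set B and set A, and the third dcl1-7 inflorescence array is the lowest of all for plastid-encoded transcripts (6.40).

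Of 34 nuclear genes of photosynthesis 25 fell and 5 rose in dcl1-7 inflorescences, beside 33.8% and 31.3% of all probe sets, with a median of -0.49. Past 2-fold were 8 falls and 1 rise. The Col-0 medians were -0.82 with set B (24 falls, 4 rises) and -0.76 with set A (27 and 3). Falls included SBPASE, a Calvin cycle phosphatase (-1.23 ± 0.08 SE, adjusted p = 1.55e-11), CaS, a thylakoid calcium sensor (-1.46 ± 0.10 SE, adjusted p = 4.63e-11), and NdhN, a subunit of the chloroplast NADH dehydrogenase-like complex (-1.58 ± 0.11 SE, adjusted p = 1.36e-11). PIFI, which acts with that complex, differed by -1.81 ± 0.12 (SE; adjusted p = 1.17e-11). RCA, Rubisco activase, did not differ beyond its error (0.01 ± 0.16 SE, adjusted p = 0.974). Positive differences from Col-0 were called for 4 of the 34 with both sets, beside 1.91% of all probe sets. LHCB4.3, a minor antenna protein of photosystem II, had 10.98, 10.75 and 10.59 in dcl1-7 inflorescences, against 10.82, 11.21 and 11.16 in dcl1-7 leaves. Its Col-0 values were 10.17, 9.95 and 9.77 in set B and 11.56, 11.51 and 11.53 in set A inflorescences, against 12.30, 12.28 and 12.19 in Col-0 leaves. The organ difference was thus -0.29 in dcl1-7, -2.29 in Col-0 with set B and -0.72 with set A. The difference with set A (0.43, adjusted p = 0.0457) was 0.31 without the first dcl1-7 leaf array (adjusted p = 0.0994). In all, this call was lost without the first or the second dcl1-7 inflorescence array, the first dcl1-7 leaf array, any set A array or the first or the second Col-0 leaf array (adjusted p = 0.0676 to 0.138). CYTC6A, a thylakoid lumen cytochrome that rose in all 3 comparisons, differed by 2.21 in dcl1-7, 1.60 in Col-0 with set B and 1.08 with set A. Its difference from set B did not pass without the first or the second dcl1-7 inflorescence array, the first dcl1-7 leaf array or the first Col-0 leaf array (adjusted p = 0.0511 to 0.0747). LPA19 and PAM68, both assembly factors of photosystem II, had organ differences of -0.40 and 0.56 in dcl1-7, against -1.08 and 0.09 with set B and -1.17 and -0.71 with set A.

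Of 12 genes of chlorophyll and heme synthesis 3 rose and 4 fell in dcl1-7, with a median of 0.04, beside -0.47 with set B and -0.58 with set A in Col-0. HEMA2, a glutamyl-tRNA reductase, differed by -2.41 ± 0.24 (SE; adjusted p = 8.62e-09), and CHLI2, a subunit of magnesium chelatase, by -1.30 ± 0.12 (SE; adjusted p = 3.24e-09). HEME1 and HEME2, uroporphyrinogen decarboxylases, were the 2 that differed from Col-0 with both sets, beside 3.23% of all probe sets. HEME2 had 10.50, 10.13 and 10.08 in dcl1-7 inflorescences, against 10.46, 9.92 and 10.09 in dcl1-7 leaves. Col-0 arrays gave it 10.10, 10.19 and 10.03 in set B and 10.58, 10.54 and 10.53 in set A inflorescences, against 11.35, 11.32 and 10.82 in Col-0 leaves, so the organs overlapped in dcl1-7 and not in Col-0 with either set. Its difference from Col-0 was 1.14 ± 0.22 with set B (adjusted p = 0.000474) and 0.69 ± 0.22 with set A (adjusted p = 0.0293). HEME1 differed by 0.83 ± 0.29 with set B (adjusted p = 0.0448) and 0.85 ± 0.29 with set A (adjusted p = 0.0497), close to the threshold, and with only the dcl1-7 and Col-0 arrays in the fit neither passed (adjusted p = 0.109 with set B and 0.12 with set A). In that fit HEME2 had an adjusted p of 0.0584 with set A. The HEME2 call with set A was lost without the first dcl1-7 inflorescence array, the second or the third dcl1-7 leaf array, the second or the third set A array or the first or the second Col-0 leaf array (adjusted p = 0.0555 to 0.091). The HEME1 call with set B was lost without the first or the second dcl1-7 inflorescence array, the second or the third dcl1-7 leaf array, the first or the third set B array or the first or the second Col-0 leaf array (adjusted p = 0.055 to 0.155). With set A it was lost without the first or the second dcl1-7 inflorescence array, the second or the third dcl1-7 leaf array, any set A array or the first or the second Col-0 leaf array (adjusted p = 0.0568 to 0.152).

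Of 69 plastid-encoded transcripts 38 fell and 5 rose in dcl1-7 inflorescences, beside 33.8% and 31.3% of all probe sets, with a median of -0.83. Whether labelling captured plastid and mitochondrial transcripts in proportion to their amount was not examined, so the values here describe array signal. The Col-0 medians lay on both sides of 0, at -0.47 with set B (26 falls, 1 rise) and 0.32 with set A (4 falls, 13 rises). Their mean level was 8.09, 7.37 and 6.40 on the dcl1-7 inflorescence arrays, against 7.70, 8.35 and 8.14 on the dcl1-7 leaf arrays. In Col-0 it was 7.75, 7.82 and 6.78 in set B and 8.34, 8.49 and 8.32 in set A inflorescences, against 7.76, 7.81 and 7.81 in leaves. The low arrays, the third of dcl1-7 and the third of set B, are those with the high 3′ minus 5′ difference. Without these arrays and a dcl4-2 inflorescence array with a like value, 36 fell and 18 rose in dcl1-7, with a median of -0.71. With the third dcl1-7 inflorescence array alone left out 36 fell and 10 rose. The falls included psbA, which encodes the D1 protein of photosystem II, and ndhJ, a subunit of the NADH dehydrogenase-like complex. psbA had 6.27, 5.89 and 5.89 in dcl1-7 inflorescences, against 8.75, 8.75 and 9.06 in dcl1-7 leaves. It differed by -2.83 ± 0.17 (SE; adjusted p = 1.32e-12), and ndhJ by -2.47 ± 0.21 (SE; adjusted p = 9.25e-10). atpH, a subunit of the chloroplast ATP synthase, had 5.89, 5.66 and 5.48 in dcl1-7 inflorescences, against 9.32, 9.90 and 8.95 in dcl1-7 leaves. In Col-0 it had 5.94, 5.63 and 5.62 in set B and 10.14, 9.71 and 10.47 in set A inflorescences, against 8.46, 8.17 and 9.18 in Col-0 leaves, so that set B was as low as dcl1-7 and set A was above the leaves. Relative to Col-0 with both sets, psbA (-0.95 and -1.13 with sets B and A), psbN (-1.06 and -1.66) and rps14 (-1.11 and -2.11) had a more negative organ difference in dcl1-7. Without the third dcl1-7 inflorescence array psbA alone of these passed with both sets, at -0.89 and -1.07. The psbN call with set B was lost without the third dcl1-7 inflorescence array, the second dcl1-7 leaf array, the first set B array or the first Col-0 leaf array (adjusted p = 0.0631 to 0.0826). That of rps14 was lost without the first or the third dcl1-7 inflorescence array, the second dcl1-7 leaf array, the first or the second set B array or the second or the third Col-0 leaf array (adjusted p = 0.0594 to 0.114). Without the first dcl1-7 leaf array 11 of the 69 differed from Col-0 with both sets, all negative. Of 16 mitochondrial transcripts 2 rose and 4 fell, with a median of -0.14. The counts were 2 and 8 without the first dcl1-7 leaf array and 3 and 2 without the third inflorescence array. nad6, of respiratory complex I, was the 1 called with both sets (-0.45 and -0.36), and its set A value did not pass with arrays centred on their medians (adjusted p = 0.11). The same call was lost without the first or the third dcl1-7 inflorescence array, the second or the third dcl1-7 leaf array, any set A array or the first or the third Col-0 leaf array (adjusted p = 0.0596 to 0.129).

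Of 14 defence genes 12 fell, all past 2-fold, and 0 rose in dcl1-7 inflorescences, with a median of -2.36. Col-0 had 11 falls and 0 rises with set B (median -2.58) and 12 falls and 1 rise with set A (median -2.79). Their mean level was 5.72, 5.94 and 5.78 on the inflorescence arrays, against 8.76, 8.57 and 8.30 on the leaf arrays of dcl1-7. WRKY6, a transcription factor of senescence and pathogen response, had 5.71, 5.91 and 5.80 in dcl1-7 inflorescences, against 10.01, 10.05 and 9.42 in dcl1-7 leaves. PUB24, a ubiquitin ligase that restrains immunity, and SAG101, which signals from immune receptors, differed by -4.21 ± 0.17 (SE; adjusted p = 2.97e-15) and -3.67 ± 0.18 (SE; adjusted p = 5.63e-14). EFR, the receptor for bacterial elongation factor Tu, had 5.95, 5.96 and 6.11 in dcl1-7 inflorescences, against 7.88, 7.53 and 7.43 in dcl1-7 leaves. Col-0 arrays gave it 5.74, 5.64 and 5.76 in set B and 6.18, 6.16 and 6.36 in set A inflorescences, against 8.81, 8.52 and 8.62 in Col-0 leaves, and the smaller fall in dcl1-7 was called with both sets, at 1.33 ± 0.25 with set B (adjusted p = 0.000525) and 0.81 ± 0.25 with set A (adjusted p = 0.0307). The set A call for EFR was lost without the third dcl1-7 inflorescence array, the second or the third dcl1-7 leaf array, the first or the second set A array or the first Col-0 leaf array (adjusted p = 0.0663 to 0.0797). PR-1-LIKE had 4.80, 4.95 and 4.88 in dcl1-7 inflorescences, against 6.94, 6.62 and 6.40 in dcl1-7 leaves. Its fall was larger than in Col-0, with differences of organ differences of -0.72 with set B and -0.68 with set A. UGT74F1 (-0.05) and TPS-CIN (-0.10) did not pass the test.

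Of 13 jasmonate genes 5 rose and 4 fell, shares near those of all probe sets (31.3% and 33.8%). THI2.1, described above, and JAL23, a jacalin-related lectin (2.96 ± 0.28 SE, adjusted p = 4.12e-09), rose. MYC3, a bHLH factor that jasmonate releases, had 10.17, 9.92 and 9.98 in dcl1-7 inflorescences, against 8.37, 7.50 and 7.64 in dcl1-7 leaves. The defensin genes PDF1.2 and PDF1.2b fell, PDF1.2b with a difference of -5.17 ± 0.30 (SE; adjusted p = 9.51e-13), and so did OPCL1, an enzyme of jasmonate synthesis (-3.58 ± 0.22 SE, adjusted p = 4.5e-12). These near-identical defensin genes may share probes, so their values are not independent. JAL34 (-1.23 ± 0.11 SE, adjusted p = 3.45e-09) fell further than in Col-0, with differences of organ differences of -0.63 with set B and -0.76 with set A. JMT, which methylates jasmonate, changed sign with the Col-0 set, at 0.78 in dcl1-7, -0.90 in Col-0 with set B and 0.90 with set A.

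Of 10 cold and drought genes, 4 had a more negative organ difference in dcl1-7 than in Col-0 with both sets, beside 1.32% of all probe sets, and 0 a more positive one. The list was chosen with earlier results of these data known, so this contrast is a description and not a test. In dcl1-7 itself 4 of the 10 rose and 4 fell between organs. LTI30, a dehydrin that protects membranes in the cold, had 6.51, 6.66 and 6.96 in dcl1-7 inflorescences, against 10.43, 10.92 and 11.67 in dcl1-7 leaves. The Col-0 arrays had 6.62, 6.98 and 8.23 in set B and 6.48, 6.65 and 7.09 in set A inflorescences, against 7.99, 8.08 and 9.03 in Col-0 leaves. Leaves of dcl1-7 were above every other group, and the inflorescences of all 3 kinds overlapped. The differences of organ differences for LTI30 were -3.20 ± 0.54 with set B (adjusted p = 0.000132) and -2.67 ± 0.54 with set A (adjusted p = 0.00135). COR47, another dehydrin, had 11.20, 11.56 and 12.09 in dcl1-7 inflorescences, against 11.85, 11.65 and 12.59 in dcl1-7 leaves, where the organs overlapped (-0.41 ± 0.25 SE, adjusted p = 0.156). In Col-0 it had 11.84, 12.01 and 11.99 in set B and 10.98, 10.87 and 11.24 in set A inflorescences, against 9.47, 9.50 and 10.30 in Col-0 leaves, so that the rise seen in both Col-0 comparisons (2.19 and 1.27) was absent from the calls in dcl1-7. COR15A and COR15B, which protect chloroplast membranes in the cold, fell in dcl1-7, with differences of -1.48 ± 0.29 (SE; adjusted p = 0.000129) and -1.88 ± 0.24 (SE; adjusted p = 5.8e-07). Their Col-0 differences were -0.13 and -0.91 with set B and 1.08 and 0.16 with set A. The COR15B difference from Col-0 with set B (adjusted p = 0.0449) did not pass with only the dcl1-7 and Col-0 arrays in the fit (adjusted p = 0.0966). DI21, induced by drought, had 10.13, 9.98 and 10.31 in dcl1-7 inflorescences, against 6.86, 6.70 and 6.88 in dcl1-7 leaves, and it rose alike in Col-0 (3.16 and 2.76). COR27, a cold-regulated gene tied to the clock, differed by 2.25 in dcl1-7, 4.51 in Col-0 with set B and 0.21 with set A. Without the first dcl1-7 leaf array all 4 were still called with both sets, and LTI30 and COR47 also without any other single array. The COR15A call with set B was lost without the first dcl1-7 inflorescence array, the third dcl1-7 leaf array or the first Col-0 leaf array (adjusted p = 0.0557 to 0.0703). That of COR15B was lost without any dcl1-7 inflorescence array, the second or the third dcl1-7 leaf array, the second or the third set B array or the first or the second Col-0 leaf array (adjusted p = 0.0503 to 0.156). Without the inflorescence arrays of high 3′ minus 5′ difference the set B adjusted p was 0.05 for COR15A, which is not under the threshold, and 0.157 for COR15B.

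Of the 112 listed microRNA targets 15 were matched to a probe set with a single symbol. Whether probe sets without a single symbol measure the others was not examined. In dcl1-7, 3 of the 15 rose and 8 fell between organs, 2 and 3 of them past 2-fold, with a median of -0.27. The Col-0 counts were 4 and 8 with set B (median -0.39) and 4 and 6 with set A (median -0.18). Of the 15, 1 differed from Col-0 with both sets, beside 3.23% of all probe sets. That was AGL16, a MADS-box factor cut by miR824. AGL16 had 9.58, 9.67 and 9.86 in dcl1-7 inflorescences, against 9.91, 9.57 and 9.95 in dcl1-7 leaves. Its Col-0 values were 7.59, 7.58 and 7.81 in set B and 7.37, 7.16 and 7.30 in set A inflorescences, against 8.88, 8.51 and 8.97 in Col-0 leaves. All 6 dcl1-7 values were above all 9 Col-0 values, and the organs, apart in Col-0, overlapped in dcl1-7. Its organ difference was -0.10 ± 0.16 (SE; adjusted p = 0.566), against -1.13 in Col-0 with set B and -1.51 with set A. The differences of organ differences were 1.02 ± 0.22 with set B (adjusted p = 0.00156) and 1.41 ± 0.22 with set A (adjusted p = 0.000114), and both held without the first dcl1-7 leaf array (1.07 and 1.46) and without the third inflorescence array (0.94 and 1.33).

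The sulfate assimilation genes APS3 and APS4, ATP sulfurylases cut by miR395, were lower in dcl1-7 inflorescences. APS3 had 7.75, 7.48 and 7.78 in dcl1-7 inflorescences, against 10.41, 10.42 and 10.12 in dcl1-7 leaves, with 6.91, 7.22 and 7.15 in set B and 7.84, 7.83 and 7.94 in set A inflorescences, against 9.76, 9.84 and 9.96 in Col-0 leaves. It differed by -2.65 ± 0.11 (SE; adjusted p = 1.8e-15). APS4 had 8.69, 8.73 and 9.50 in dcl1-7 inflorescences, against 10.06, 9.51 and 10.11 in dcl1-7 leaves, with 7.96, 8.15 and 8.03 in set B and 7.91, 8.00 and 8.19 in set A inflorescences, against 8.52, 8.98 and 8.83 in Col-0 leaves. Every dcl1-7 inflorescence value of APS4 lay above both Col-0 inflorescence sets and every dcl1-7 leaf value above Col-0 leaves, while its organ difference of -0.92 ± 0.19 (SE; adjusted p = 0.000206) stood beside -0.73 and -0.74 in Col-0. CCS, which loads copper into superoxide dismutase and is under miR398, had 10.64, 10.44 and 10.86 in dcl1-7 inflorescences, against 11.68, 10.87 and 10.98 in dcl1-7 leaves, with 10.12, 10.08 and 10.31 in set B and 9.83, 9.75 and 9.79 in set A inflorescences, against 9.95, 9.90 and 10.15 in Col-0 leaves. It too was higher than Col-0 in the inflorescence and in the leaf, and differed by -0.53 ± 0.17 (SE; adjusted p = 0.00942). This call was lost without the first dcl1-7 leaf array (-0.28, adjusted p = 0.101), without the second inflorescence array (-0.43, adjusted p = 0.0535) and with the 3′ minus 5′ difference as a covariate (-0.38, adjusted p = 0.0918).

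ARPN, the plantacyanin cut by miR408, had 11.56, 11.79 and 11.91 in dcl1-7 inflorescences, against 7.72, 7.83 and 8.24 in dcl1-7 leaves, with 10.50, 10.30 and 10.29 in set B and 11.39, 11.24 and 11.36 in set A inflorescences, against 6.69, 7.31 and 7.37 in Col-0 leaves. Its organ difference of 3.83 ± 0.17 (SE; adjusted p = 1.02e-14) was the largest on the list, and in both organs dcl1-7 lay above Col-0. AT3G15640, a cytochrome c oxidase subunit targeted by miR398, differed by 1.26 ± 0.25 (SE; adjusted p = 0.000174). SNZ, an AP2-type floral repressor under miR172, differed by -1.30 in dcl1-7, -1.34 in Col-0 with set B and -1.34 with set A, and its relative SMZ (0.08 ± 0.11 SE, adjusted p = 0.538) did not pass in dcl1-7. AT5G43740 and AT1G12290, immune receptor genes of the class under miR472, differed by -1.90 ± 0.20 (SE; adjusted p = 2.72e-08) and -0.50 ± 0.16 (SE; adjusted p = 0.00976). With quantile normalization AT1G12290 did not pass (-0.38, adjusted p = 0.07). PHV, a leaf polarity factor under miR166, had 9.13, 9.11 and 9.57 in dcl1-7 inflorescences, against 9.20, 9.09 and 8.71 in dcl1-7 leaves, with 8.27, 8.37 and 8.76 in set B and 9.17, 8.91 and 8.95 in set A inflorescences, against 8.12, 7.96 and 7.94 in Col-0 leaves. Its organs overlapped in dcl1-7 (0.27 ± 0.15 SE, adjusted p = 0.118), though with the 3′ minus 5′ difference as a covariate the organ difference was 0.59 (adjusted p = 0.000395), and its dcl1-7 leaves were above Col-0 leaves. The difference from Col-0 was -0.19 with set B (adjusted p = 0.576) and -0.74 with set A (adjusted p = 0.0174). LCR, an F-box protein under miR394, did not pass (-0.13 ± 0.14 SE, adjusted p = 0.439). AT5G60760 rose (0.97). AT1G53290 had -0.27, which did not pass with the 3′ minus 5′ covariate (-0.15, adjusted p = 0.115). AT1G66720 had -0.28, which did not pass with quantile normalization (-0.12, adjusted p = 0.242) nor without the second or the third dcl1-7 inflorescence array or the second or the third dcl1-7 leaf array (adjusted p = 0.0563 to 0.14).

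**Figure D3:**
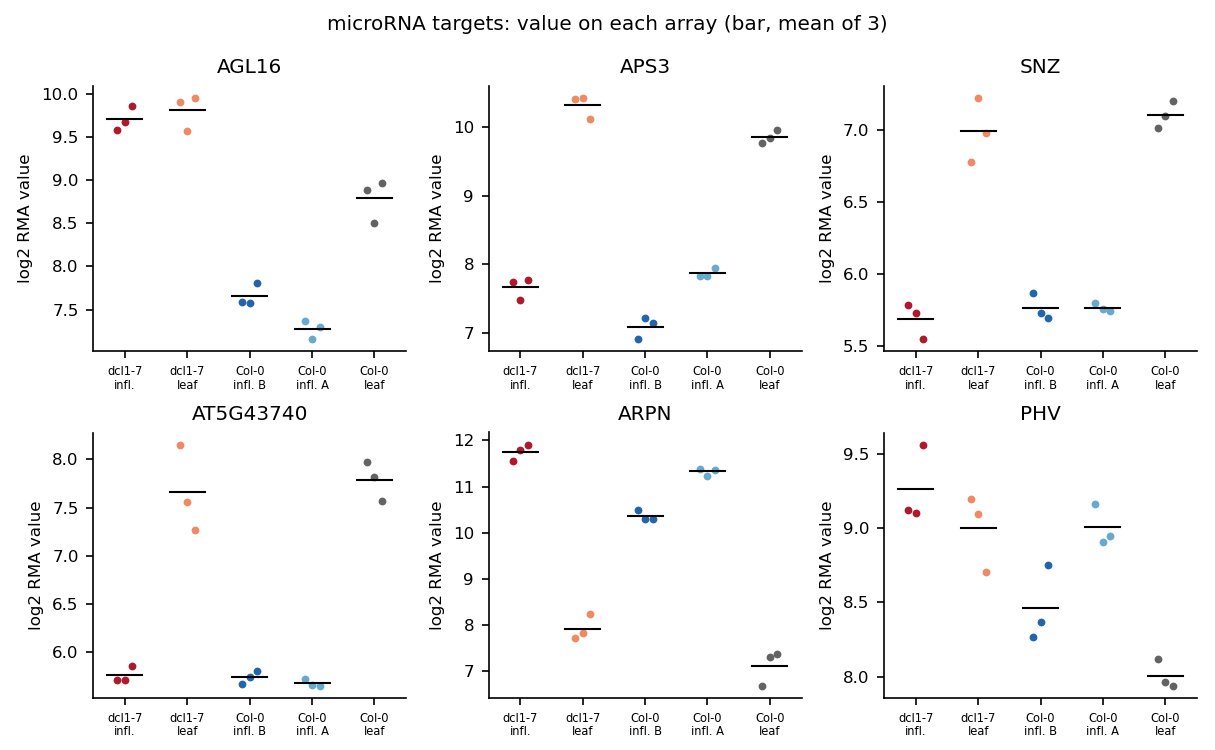
Log2 value of 6 microRNA targets on each of the 3 arrays per group (points; bar, mean) in dcl1-7 inflorescences and leaves and in Col-0 inflorescence sets B and A and leaves. AGL16 is level between the dcl1-7 organs (9.58 to 9.86 and 9.57 to 9.95) and lower in Col-0 inflorescences than in Col-0 leaves, while APS3, SNZ and AT5G43740 are lower in the inflorescences of both genotypes and ARPN is higher.

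Among 14 measured pentatricopeptide repeat genes of the RFL group, of 27 listed, which are hit by microRNAs and secondary siRNAs, 2 rose and 2 fell. Their mean level was close to the floor of the array, at 5.119 to 5.182 on dcl1-7 inflorescence and 5.112 to 5.178 on dcl1-7 leaf arrays. AT1G12775 had 5.28, 5.28 and 5.55 in dcl1-7 inflorescences, against 6.43, 6.73 and 6.11 in dcl1-7 leaves. Col-0 arrays gave it 5.04, 4.88 and 5.01 in set B and 5.38, 4.98 and 5.26 in set A inflorescences, against 5.14, 5.15 and 5.32 in Col-0 leaves, without a difference between organs that passed. It was the 1 member whose organ difference differed from Col-0 with both sets, at -0.82 ± 0.24 with set B (adjusted p = 0.0144) and -1.05 ± 0.24 with set A (adjusted p = 0.00343). The leaf values were higher in dcl1-7 than in Col-0. The set B call was lost without the second dcl1-7 leaf array (adjusted p = 0.051). AT1G63150 rose by 0.88 ± 0.09 (SE; adjusted p = 7.36e-09). These genes resemble each other closely, so probe sets may pick up more than 1 of them. Of 4 small RNA machinery genes measured out of 29 listed, 3 rose. AGO7, the ARGONAUTE that loads miR390, had 7.28, 7.43 and 7.54 in dcl1-7 inflorescences, against 6.87, 7.00 and 6.50 in dcl1-7 leaves (0.63 ± 0.14 SE, adjusted p = 0.000564). SE, a partner of DICER-LIKE1, differed by 1.00 in dcl1-7, 0.88 in Col-0 with set B and 1.14 with set A, and DDL, another, by 1.14 in dcl1-7, 1.49 in Col-0 with set B and 0.13 with set A. AT5G21030, an ARGONAUTE gene, did not pass (0.07 ± 0.08 SE, adjusted p = 0.439) except with quantile normalization (0.23, adjusted p = 0.0105).

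Of 14 SWEET sugar exporters 9 rose, 8 of them past 2-fold, and 3 fell in dcl1-7 inflorescences, beside 31.3% and 33.8% of all probe sets (median 1.72, against 1.52 with set B and 2.43 with set A in Col-0). SWEET10 had 9.71, 9.91 and 9.31 in dcl1-7 inflorescences, against 5.60, 5.80 and 6.48 in dcl1-7 leaves. SWEET9, the nectary exporter, differed by 2.70 ± 0.23 (SE; adjusted p = 6.8e-10), SWEET1 by 2.45 ± 0.14 (SE; adjusted p = 6.67e-13) and SWEET14 by 2.49 ± 0.22 (SE; adjusted p = 1.58e-09). SWEET11, which loads leaf phloem, fell (-1.12), a gene named after its value was seen. With SWEET8, described above, SWEET13 of the phloem differed from Col-0 with both sets. It had 7.50, 7.72 and 8.20 in dcl1-7 inflorescences, against 8.27, 8.00 and 7.79 in dcl1-7 leaves. In Col-0 it had 8.58, 8.73 and 8.56 in set B and 8.07, 8.06 and 8.10 in set A inflorescences, against 7.31, 7.12 and 6.76 in Col-0 leaves, a rise with both sets that was not called in dcl1-7, and the difference was -1.77 ± 0.32 with set B (adjusted p = 0.000316) and -1.22 ± 0.32 with set A (adjusted p = 0.0107).

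Of 21 auxin genes 7 rose and 7 fell, shares near those of all probe sets (31.3% and 33.8%). WES1, an auxin-conjugating GH3 enzyme, differed by 4.52 in dcl1-7, 5.31 in Col-0 with set B and 2.26 with set A, and GH3.17, of the same family, by 2.08 in dcl1-7, 2.66 in Col-0 with set B and 1.25 with set A. GH3.9 rose in dcl1-7 (0.83 ± 0.15 SE, adjusted p = 6.66e-05) and in neither Col-0 comparison (-0.09 and 0.14), a difference called with both sets (0.92 and 0.69). The set A call for GH3.9 was lost without the first dcl1-7 inflorescence array, the first dcl1-7 leaf array, the first or the third set A array or the first or the third Col-0 leaf array (adjusted p = 0.0524 to 0.0992). Among 28 genes of cell wall expansion 9 rose and 8 fell. XTH18, a xyloglucan-modifying enzyme, had 4.86, 5.34 and 4.89 in dcl1-7 inflorescences, against 9.87, 9.77 and 9.88 in dcl1-7 leaves. In Col-0 it had 5.78, 5.65 and 5.84 in set B and 5.07, 5.06 and 5.00 in set A inflorescences, against 7.77, 8.01 and 9.08 in Col-0 leaves. Its fall was larger in dcl1-7, with differences of organ differences of -2.28 with set B and -1.57 with set A. The set A call for XTH18 was lost without the first or the third dcl1-7 inflorescence array, any dcl1-7 leaf array, any set A array or the first or the second Col-0 leaf array (adjusted p = 0.0549 to 0.118). XTH16, of the same family, rose by 2.59 ± 0.16 (SE; adjusted p = 4e-12), more than in Col-0 (by 0.70 with set B and 1.07 with set A). Its set B call was lost without the first dcl1-7 inflorescence array, the third dcl1-7 leaf array, the first or the second set B array or the first or the third Col-0 leaf array (adjusted p = 0.0508 to 0.0964). EXPA4, an expansin, rose by 3.05 ± 0.48 (SE; adjusted p = 9.9e-06) with a wide error: the third of its inflorescence arrays was low (7.65, beside 9.12 and 9.17).

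Of 4 stomata genes 2 rose and 0 fell. STOMAGEN, a secreted peptide that promotes stomata, had 9.31, 9.36 and 9.25 in dcl1-7 inflorescences, against 7.62, 7.57 and 6.42 in dcl1-7 leaves, where the groups did not overlap. Col-0 arrays gave it 8.47, 8.23 and 8.94 in set B and 8.37, 8.56 and 8.34 in set A inflorescences, against 8.76, 8.00 and 7.78 in Col-0 leaves, with overlap. It differed from Col-0 by 1.74 ± 0.41 with set B (adjusted p = 0.00359) and 1.86 ± 0.41 with set A (adjusted p = 0.00306). FMA, the bHLH factor of guard cells, overlapped between dcl1-7 organs (-0.07 ± 0.10 SE, adjusted p = 0.555) and was lower in Col-0 inflorescences (-0.56 and -0.78), a difference called with both sets (0.49 and 0.71). SPCH, which starts the stomatal lineage, rose (0.37), but did not pass with the 3′ minus 5′ covariate (0.32, adjusted p = 0.0525) or without the first dcl1-7 inflorescence array (0.30, adjusted p = 0.0526). MUTE, which acts after it, did not pass (-0.14). Among flavonoid genes 3 of 8 rose and 2 fell (2 and 1 without the third dcl1-7 inflorescence array), led by CHIL (1.83 ± 0.18 SE, adjusted p = 7.88e-09). Of 6 glucosinolate genes 2 rose and 3 fell, or 1 and 3 without the third dcl1-7 inflorescence array. BCAT4, which starts the side chain of methionine-derived glucosinolates, differed by -2.102 in dcl1-7, -4.08 in Col-0 with set B and -2.51 with set A, and the transporters GTR1 and GTR2 by -1.63 and 1.48 in dcl1-7. Of 6 starch and photorespiration genes 3 rose (DPE1, 1.27; PWD, 1.08; APL4, 0.57) and 3 fell (SBE2.2, -1.14; APL3, -0.86; HPR, -0.40).

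Markers of other organs were also compared between dcl1-7 organs. Of 6 root genes 1 rose, UPB1, a bHLH factor (3.16 ± 0.33 SE, adjusted p = 2.9e-08), and EXPA7 (-0.24), EXPA18 (-0.15) and XTH26 (-0.09) did not pass. With arrays centred on their medians these 3 fell (-0.38, -0.28 and -0.22), as did EXPA7 with the 3′ minus 5′ covariate (-0.43, adjusted p = 0.00716). Of 7 seed genes 3 rose and 0 fell, and PAP85, a vicilin-like storage protein, had 9.72, 10.16 and 9.97 in dcl1-7 inflorescences, against 5.21, 5.58 and 5.72 in dcl1-7 leaves. In Col-0 it had 11.55, 11.55 and 11.20 in set B and 5.08, 5.29 and 5.11 in set A inflorescences, against 5.33, 5.12 and 5.44 in Col-0 leaves. Set A inflorescences were at leaf level for PAP85, and dcl1-7 inflorescences lay between the sets. The trichome genes TRY and SIM rose (2.204 and 1.37), and GIS did not pass (-0.10).

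**Figure D4:**
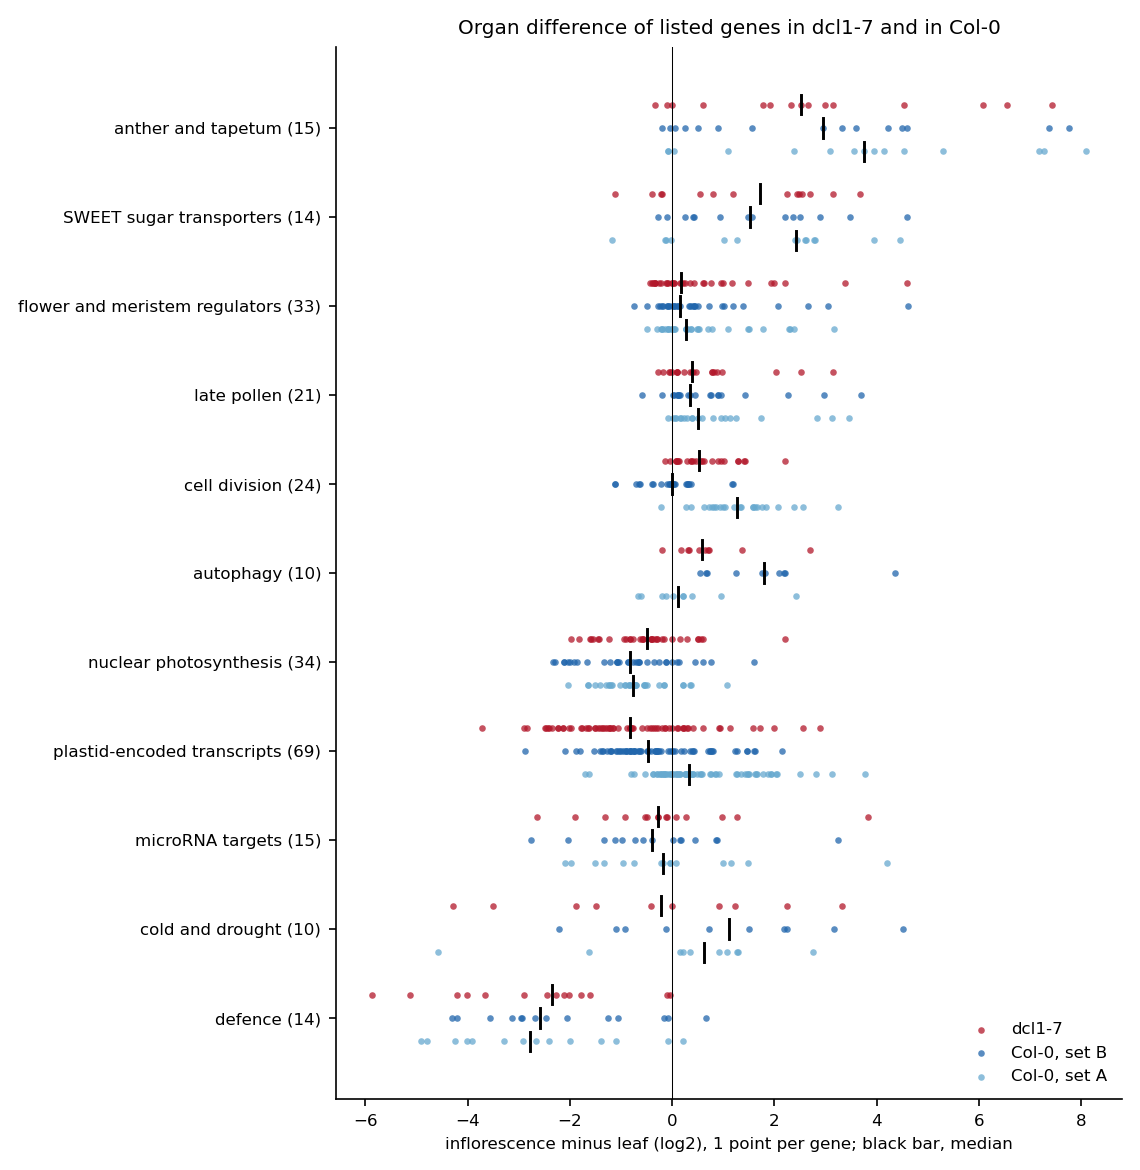
Inflorescence minus leaf difference (log2) of each measured gene of 11 lists in dcl1-7 (red), Col-0 with set B (dark blue) and Col-0 with set A (light blue); black bars are medians and numbers of genes are in brackets. Anther and tapetum genes are mostly positive and defence genes negative in all 3 comparisons (dcl1-7 medians 2.53 and -2.36), while the cell division and autophagy medians of dcl1-7 (0.52 and 0.59) lie between those of the 2 Col-0 sets.

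The organ difference of dcl1-7 was tested directly against that of Col-0. With set B, 5070 probe sets (22.3%) had a different organ difference in dcl1-7, of which 2877 were more positive (12.6%) and 2193 more negative (9.64%). With set A, 3804 did (16.7%), 1993 more positive (8.76%) and 1811 more negative (7.96%). The 2 tests share 9 of their 12 arrays. In the same direction with both were 734 probe sets (3.23%), 434 more positive (1.91%) and 300 more negative (1.32%), while 825 were called in opposite directions (3.63%). Both differences passed 2-fold for 133 (0.585%). The same-direction count depended on single arrays: without the first dcl1-7 leaf array it was 1866, of which 681 were among the 734. Among the Col-0 probe sets at least 2-fold higher in inflorescences, the difference was smaller in dcl1-7 with both sets for 31 and larger for 45. Among the leaf-typical ones it was smaller for 80 and larger for 47, and without the first dcl1-7 leaf array smaller for 155 and larger for 51. The inflorescence-typical counts were then 60 and 61, and without the third dcl1-7 inflorescence array 45 and 38, so which of those 2 was larger turned on single arrays. These probe sets were chosen for large differences on the same Col-0 arrays that the test subtracts. That choice by itself favours smaller differences in dcl1-7, so no conclusion is drawn from the smaller and larger counts.

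The most positive named difference was that of AT2G33850. It had 11.03, 10.86 and 11.63 in dcl1-7 inflorescences, against 4.64, 4.99 and 4.94 in dcl1-7 leaves. The Col-0 arrays had 9.29, 9.08 and 9.18 in set B and 10.43, 10.10 and 10.30 in set A inflorescences, against 7.84, 7.08 and 7.36 in Col-0 leaves. The dcl1-7 inflorescences were above, and the dcl1-7 leaves below, every Col-0 array of the same organ, and the difference was 4.56 ± 0.32 with set B (adjusted p = 2.71e-09) and 3.47 ± 0.32 with set A (adjusted p = 1.72e-07). AT5G45670, a GDSL-type lipase, had 10.37, 10.23 and 10.33 in dcl1-7 inflorescences, against 5.64, 5.93 and 5.85 in dcl1-7 leaves, with 9.32, 9.18 and 9.60 in set B and 10.84, 10.90 and 10.77 in set A inflorescences, against 8.11, 7.52 and 7.53 in Col-0 leaves. In this gene it was the dcl1-7 leaves that stood apart, below Col-0 leaves. AT3G53980, of the lipid transfer family, had 10.79, 10.52 and 10.19 in dcl1-7 inflorescences, against 7.76, 7.63 and 7.69 in dcl1-7 leaves, with 8.17, 8.25 and 8.35 in set B and 8.53, 8.98 and 8.73 in set A inflorescences, against 7.81, 7.66 and 7.96 in Col-0 leaves. Here the inflorescences stood apart, above both Col-0 sets. AT3G28900, a ribosomal protein L34e, had 11.54, 11.38 and 11.27 in dcl1-7 inflorescences, against 9.89, 9.59 and 9.18 in dcl1-7 leaves, and its Col-0 leaves (11.12, 10.92 and 10.90) were higher than dcl1-7 leaves. AT4G38950, a kinesin, differed by 1.48 in dcl1-7, -0.97 in Col-0 with set B and 0.37 with set A. The set A call for AT4G38950 was lost without the third dcl1-7 inflorescence array, the third dcl1-7 leaf array or the first Col-0 leaf array (adjusted p = 0.0584 to 0.0656). AT3G44400, an immune receptor of the TIR-NBS-LRR class, had 4.45, 4.67 and 4.58 in dcl1-7 inflorescences, against 7.04, 4.98 and 5.03 in dcl1-7 leaves, with 4.76, 4.97 and 4.79 in set B and 4.70, 4.69 and 4.92 in set A inflorescences, against 7.89, 8.22 and 8.08 in Col-0 leaves. Its first dcl1-7 leaf array lay between the other dcl1-7 leaf arrays and those of Col-0, and without it the differences were 2.79 with set B and 2.86 with set A. GLC, a BAHD-type acyltransferase, differed by 2.201 in dcl1-7, 0.21 in Col-0 with set B and 1.49 with set A. The set A call for GLC was lost without the second or the third dcl1-7 inflorescence array, the first or the third dcl1-7 leaf array, any set A array or any Col-0 leaf array (adjusted p = 0.0516 to 0.139).

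The most negative was EXLA1, an expansin-like protein. It had 8.14, 8.99 and 9.06 in dcl1-7 inflorescences, against 10.29, 10.13 and 10.32 in dcl1-7 leaves. Its Col-0 values were 10.15, 10.17 and 10.61 in set B and 8.07, 7.90 and 8.29 in set A inflorescences, against 7.34, 7.73 and 7.94 in Col-0 leaves. The dcl1-7 organs ran opposite to Col-0 with set B, and the difference was -4.16 ± 0.40 with set B (adjusted p = 1.59e-07) and -1.93 ± 0.40 with set A (adjusted p = 0.00161). CML41, a calmodulin-like protein, had 6.20, 6.87 and 6.78 in dcl1-7 inflorescences, against 8.51, 9.45 and 10.02 in dcl1-7 leaves, with 8.58, 8.40 and 8.11 in set B and 6.57, 6.57 and 6.74 in set A inflorescences, against 6.98, 7.63 and 8.01 in Col-0 leaves. AT5G54300 differed by -2.34 in dcl1-7, 0.51 in Col-0 with set B and -0.70 with set A. AT4G12490, of the lipid transfer family, and AT4G28140, an ERF transcription factor, had low inflorescences in every group and higher leaves in dcl1-7 than in Col-0. AT4G12490 had 5.07, 4.94 and 4.84 in dcl1-7 inflorescences, against 8.96, 10.11 and 10.06 in dcl1-7 leaves. Col-0 leaves had 6.41, 7.70 and 7.16. AT4G28140 had 5.04, 5.18 and 5.17 in dcl1-7 inflorescences, against 8.42, 8.63 and 9.87 in dcl1-7 leaves. Col-0 leaves had 5.79, 6.08 and 8.29, with the third array close to the lowest dcl1-7 leaf array. AT1G02300, a cathepsin B-like protease, differed by 0.38 in dcl1-7, 2.72 in Col-0 with set B and 1.28 with set A. The set A call for AT1G02300 was lost without the first or the second dcl1-7 inflorescence array, the first or the third dcl1-7 leaf array, the second or the third set A array or any Col-0 leaf array (adjusted p = 0.0575 to 0.113). LTI30 and COR47 complete the 8.

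**Figure D5:**
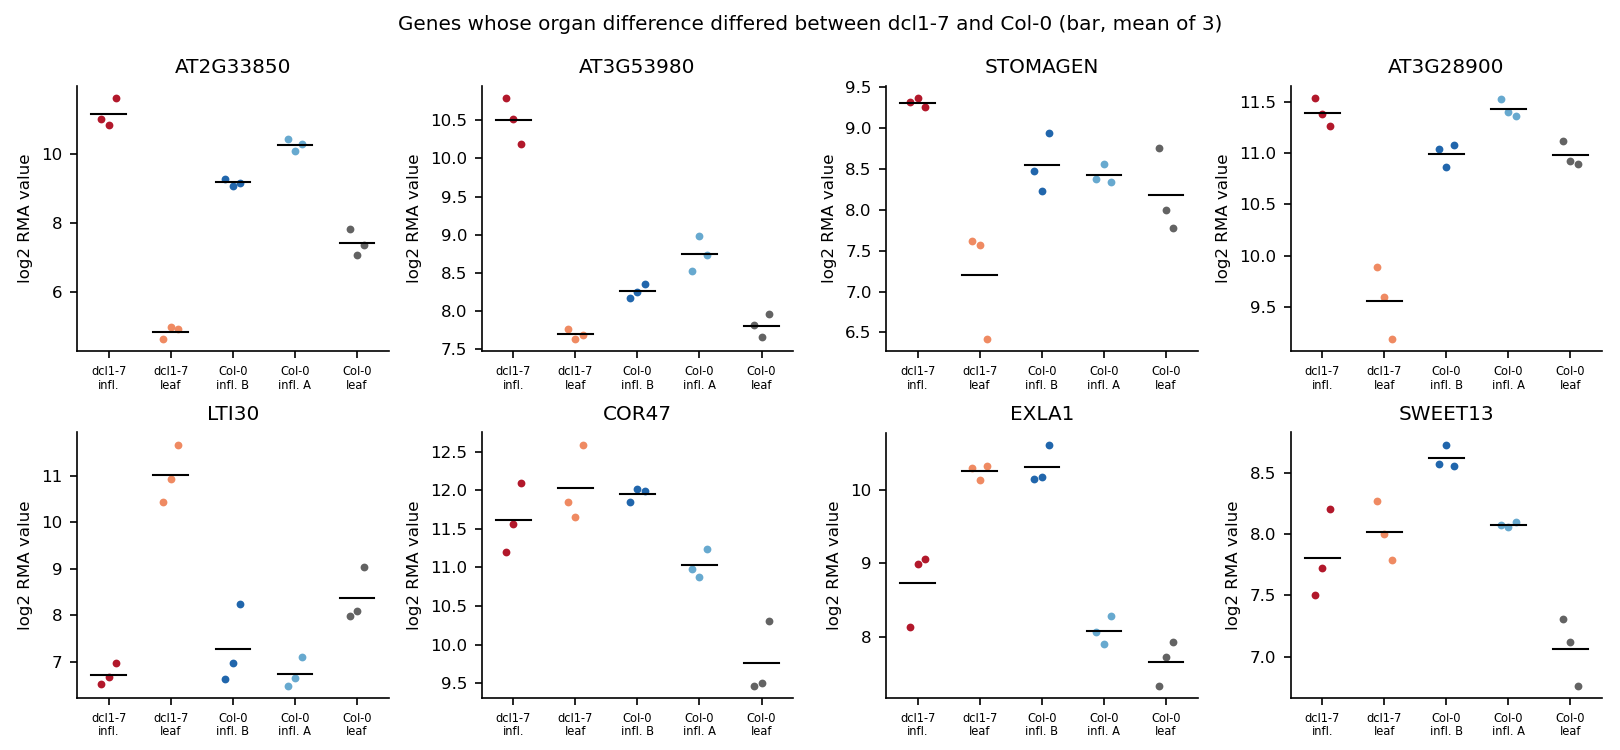
Log2 value of 8 genes whose organ difference differed between dcl1-7 and Col-0 with both inflorescence sets, on each of the 3 arrays per group (points; bar, mean); each panel has its own y axis, which does not start at 0. The upper 4 genes have a larger rise in dcl1-7 inflorescences over leaves than in Col-0, and the lower 4 have a fall or no called rise (LTI30 had 6.51 to 6.96 in dcl1-7 inflorescences against 10.43 to 11.67 in dcl1-7 leaves).

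For 22 probe sets the organs ran in opposite directions in dcl1-7 and in Col-0 with both sets, with the difference called with both; 14 of them were higher in dcl1-7 inflorescences. Of the 12 named, AT1G64510 and AT5G65220 are plastid ribosomal proteins. AT1G64510 had 11.62, 11.52 and 11.15 in dcl1-7 inflorescences, against 11.28, 10.70 and 10.88 in dcl1-7 leaves, with 11.38, 11.36 and 11.20 in set B and 11.31, 11.34 and 11.42 in set A inflorescences, against 11.93, 11.90 and 11.87 in Col-0 leaves. AT5G22340 had 10.08, 9.66 and 9.82 in dcl1-7 inflorescences, against 9.24, 9.17 and 8.77 in dcl1-7 leaves, with 9.72, 9.68 and 9.75 in set B and 9.25, 9.17 and 9.30 in set A inflorescences, against 10.03, 10.04 and 9.88 in Col-0 leaves. In both the dcl1-7 leaves were below Col-0 leaves. The dcl1-7 differences of AT5G65220 (0.41), AT3G08740 (0.54) and AT5G02710 (0.29) were likewise small and positive. Those of AT1G20070 (-0.70), AT1G33770 (-0.71) and AT3G56080 (-0.37) were negative. These genes, and those of the next 2 groups, were picked out after their values were seen.

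A further 30 probe sets, 15 of them named, were at least 2-fold different between dcl1-7 organs, were called with neither Col-0 set and differed from Col-0 with both. Of the 30, 13 were higher in dcl1-7 inflorescences. Beside STOMAGEN and AT1G12775, they held PUB19, a ubiquitin ligase, which had 6.92, 7.57 and 6.89 in dcl1-7 inflorescences, against 9.58, 8.71 and 8.62 in dcl1-7 leaves, with 7.36, 7.40 and 7.02 in set B and 7.72, 7.78 and 7.72 in set A inflorescences, against 7.58, 7.58 and 7.61 in Col-0 leaves. They also held EEL, a bZIP factor of late embryos, which had 6.28, 6.35 and 6.55 in dcl1-7 inflorescences, against 5.28, 4.99 and 5.28 in dcl1-7 leaves, with 5.07, 5.03 and 5.42 in set B and 5.16, 5.15 and 5.19 in set A inflorescences, against 4.93, 5.09 and 5.13 in Col-0 leaves. PUB19 stood apart through dcl1-7 leaves and EEL through dcl1-7 inflorescences. Conversely, 16 probe sets, 10 of them named, were past 2-fold in Col-0 with both sets, were not called in dcl1-7 and differed from Col-0 with both sets. They included AGL16, COR47, SWEET13 and AT1G02300. AT5G62360 had 9.06, 9.71 and 9.65 in dcl1-7 inflorescences, against 8.37, 8.56 and 10.32 in dcl1-7 leaves, with 8.84, 9.40 and 9.34 in set B and 9.03, 9.38 and 9.51 in set A inflorescences, against 6.62, 6.43 and 6.74 in Col-0 leaves. AT1G52000 had 8.94, 9.04 and 9.07 in dcl1-7 inflorescences, against 8.39, 8.71 and 8.66 in dcl1-7 leaves, with 7.40, 7.39 and 7.81 in set B and 8.04, 8.22 and 8.49 in set A inflorescences, against 6.08, 5.43 and 5.37 in Col-0 leaves. In both genes dcl1-7 leaves were above Col-0 leaves, and inflorescences differed less. AT1G04800 had 9.52, 9.08 and 8.79 in dcl1-7 inflorescences, against 9.70, 9.13 and 9.13 in dcl1-7 leaves, with 9.06, 8.97 and 8.91 in set B and 9.03, 8.97 and 9.34 in set A inflorescences, against 10.76, 10.70 and 10.61 in Col-0 leaves, and there dcl1-7 leaves were below Col-0 leaves.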

How the data were processed

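The values deposited by the authors are log2 signals per ATH1 probe set, made with RMA, per the submitters' processing notes, with no version given; which arrays were normalized together is not given in the sources used here. RNA was hybridised to 27 arrays in 9 groups of 3, so the number of arrays limits the precision, and the labels describe the replicates as pools of independent plants. No further normalization was applied. One group-means model was fitted to all 27 arrays with limma 3.58.1 in R 4.3.3, after leaving out 64 control probe sets. The dcl1-7 and Col-0 organ differences and their differences were contrasts of that model, with Benjamini-Hochberg adjustment over 22746 probe sets and a threshold of 0.05. The script was tested on simulated data.

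Genes were named only through probe sets with 1 symbol (13513; 503 had several and 8730 none), of which 13436 matched a RefSeq locus. For 146 genes with several probe sets the one with the highest mean was used. Named were the 10 largest rises and falls between dcl1-7 organs without overlap and the 8 largest differences from Col-0 in each direction (by set B, called with both sets). Every microRNA target and small RNA gene matched to such a probe set was named, with up to 5 members of each other list by p in the dcl1-7 organ difference. List members with the smallest p in the set B interaction were added where called. Some list members outside these rules, such as RCA and UGT74F1, were named too. Members and lists were chosen with earlier results of these data known, and a few list entries were dropped later where the symbol pointed to another gene or the role was uncertain. Alternatives covered normalization, low signal, spread, array weights, RNA quality, the arrays fitted and single arrays left out.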

Additional observations from a re-analysis of the deposited data

Results flagged for a closer look

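The 40 genes below, out of the genes named above, had an organ difference in dcl1-7 that differed from that in Col-0 in the same direction with both inflorescence sets, by the interaction terms of limma. Each value is the dcl1-7 organ difference minus the Col-0 organ difference with set B, on the log2 scale.

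A positive value means that inflorescence minus leaf was more positive in dcl1-7 than in Col-0, through either organ. The larger positive values were those of AT2G33850 (4.56), AT5G45670 (2.86), AT4G38950 (2.46), AT3G53980 (2.36), AT3G44400 (2.11), LHCB4.3 (2.00), GLC (2.00) and AT3G28900 (1.83). In dcl1-7 itself AT3G44400 (-1.12) and LHCB4.3 (-0.29) were still lower in inflorescences than in leaves. The larger negative ones were those of EXLA1 (-4.16), CML41 (-3.53), LTI30 (-3.20), AT5G54300 (-2.85), COR47 (-2.60), AT4G12490 (-2.57), AT4G28140 (-2.38) and AT1G02300 (-2.35).

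Among genes of flowers and anthers the values were negative for INO (-1.38) and SWEET8 (-1.45). Photosynthesis and tetrapyrrole genes were positive in CYTC6A (0.61), LPA19 (0.68), PAM68 (0.47), HEME1 (0.83) and HEME2 (1.14), while organellar transcripts were negative in psbA (-0.95), psbN (-1.06), rps14 (-1.11) and nad6 (-0.45). Of the genes under small RNA control, AGL16 was positive and AT1G12775 negative, as AGL16 (1.02) and AT1G12775 (-0.82). Cold, defence and jasmonate genes gave COR15A (-1.36), COR15B (-0.97), JAL34 (-0.63), EFR (1.33) and PR-1-LIKE (-0.72). The remaining genes, of auxin, sugar export, walls and stomata, were GH3.9 (0.92), SWEET13 (-1.77), XTH16 (0.70), XTH18 (-2.28), FMA (0.49) and STOMAGEN (1.74).

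Both calls held for 34 of the 40 without the first dcl1-7 leaf array, for 30 without the third dcl1-7 inflorescence array and for 31 without the inflorescence arrays of high 3′ minus 5′ difference. The 6 that missed the threshold without the first dcl1-7 leaf array were LHCB4.3, GLC, AT1G02300, CYTC6A, GH3.9 and XTH18. The 10 that missed it without the third dcl1-7 inflorescence array were AT4G38950, GLC, INO, SWEET8, psbN, rps14, nad6, COR15B, EFR and XTH18. With quantile normalization LHCB4.3, GLC, AT1G02300, CYTC6A, PAM68 and HEME1 each missed it with at least 1 set (adjusted p = 0.0567 to 0.115). With only the dcl1-7 and Col-0 arrays in the fit INO, SWEET8, nad6, LHCB4.3, AT1G02300, HEME1, HEME2, psbN, COR15B and GH3.9 did (adjusted p = 0.0551 to 0.131).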

How the results depend on the processing

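The counts of called probe sets stayed within 1.5 times of those reported for the organ difference of dcl1-7 (10864 to 16687 in 9 settings), for those of Col-0 (10796 to 15220 with set B and 10813 to 15806 with set A, 8 settings each) and for the differences of organ differences with set B (4503 to 6717) and set A (3182 to 5317). The count called with both sets in the same direction was 1529 with array weights and otherwise fell within that range, from 548 upwards. The setting without the third of probe sets with the lowest mean tested 15164 instead of 22746, so its counts in these ranges have a smaller base. Leaving out 1 array at a time gave 13171 to 15198 for dcl1-7, 12207 to 12789 and 12264 to 12896 for Col-0 with sets B and A, 4130 to 6666 and 3004 to 5454 for the differences with sets B and A, and 522 to 1866 for both sets; the highest came without the first dcl1-7 leaf array. The split of calls moved with the scaling: with each array centred on its median, 5992 were higher and 10695 lower in dcl1-7, 5633 and 9587 in Col-0 with set B and 5633 and 10173 with set A.

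Of 232 gene results 48 changed their side of the threshold in at least 1 setting: of 3831 refits, 3580 kept side and direction, 233 lost the call, 18 gained it and 0 reversed. Medians of dcl1-7 organ differences over gene lists shifted by more than the spread between arrays in 27 of 81 refits. With each array centred on its median they were 0.037 for flower and meristem regulators, 0.248 for late pollen, -0.118 for ovule and egg, -0.304 for meiosis, 0.384 for cell division, -0.620 for nuclear photosynthesis, -0.089 for chlorophyll and heme synthesis, -0.950 for glucosinolates, -0.404 for microRNA targets and -0.133 for RFL genes. In the same setting auxin gave -0.246, SWEET genes 1.586, cell wall -0.214, flavonoids -0.239, stomata 0.017, trichome 1.240, root -0.205 and seed 0.054. With quantile normalization the medians were -0.006 for meiosis, -0.579 for nuclear photosynthesis, 0.081 for RFL genes, 0.030 for auxin, 0.070 for cell wall, 0.036 for flavonoids, 1.219 for trichome, 0.079 for root and 0.329 for seed. Centring lowers every median alike by its construction; the cause of the other shifts was not tested.

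No paired analysis was possible because the labels give no replicate numbers that tie an inflorescence array to a leaf array. LTI30 and the mean of the autophagy list were highest on the third array of each dcl1-7 and Col-0 group. Whether arrays of the same order share an effect was not tested. With 3 arrays a group, small differences can be missed, and transcripts near the floor of the array have compressed differences. The 2 Col-0 inflorescence sets differ from each other, dcl1-7 lies between them, and neither was chosen over the other here. Without a genome or sequence table, no probe, promoter or microRNA sequence is shown.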
